A study of Mus musculus with 21 samples.

Results

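The genes described here were 41 genes that carry out the amino acid side of the integrated stress response: the transcription factor Atf4, genes known as its targets, and 11 cytosolic aminoacyl-tRNA synthetases. They were matched by symbol to the Ensembl identifiers of the deposited count files, all 41 were found among 55536 identifiers, and all 41 had enough reads to be tested. The list names genes by their known function, with no threshold on a measured value. It was nevertheless chosen with earlier results of these data known.

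RNA had been sequenced from pancreatic islets of male CBA mice in 3 groups of 7 samples, each sample being RNA of 150 islets from a pool of 5 mice. RD mice received standard chow, HFD mice a high-fat diet, and HFD-O304 mice the same high-fat diet formulated with 0.8 mg of O304 per g, a compound that activates AMP-activated protein kinase (AMPK). Diets began at 10 weeks of age and the islets were taken from 20-week-old mice by the account of the results, while the methods give 9 weeks of diet. The labels name no transgene or deletion in any group, and no group received O304 on chow, so the effect of O304 was measured only on top of the high-fat diet. Because islets hold several cell types, fewer cells of a type and less RNA per cell cannot be told apart in these data.

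When the initiation factor eIF2 is phosphorylated, translation of most messengers slows while that of Atf4 rises, and ATF4 protein then switches on genes for amino acid synthesis, uptake and tRNA charging. The same kinase that responds to unfolded protein in the endoplasmic reticulum (ER), PERK, feeds into this route, whereas ER chaperones are switched on mainly by the other ER sensors, ATF6 and IRE1. Beta cells make secretory protein at a high rate, and both routes are known to be active in them. Since ATF4 is controlled largely at translation, the level of its own messenger need not follow the level of its protein.

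Depth was 31746115 to 41559322 read pairs on genes in RD, 27618749 to 44041180 in HFD and 13809266 to 48922569 in HFD-O304 samples. The beta cell markers, a list of 10 genes headed by Ins1 and Ins2, were high in every sample, with a summed level of at least 9431160 normalized counts (counts divided by a sample's size factor). Genes were called different at an adjusted p under 0.01 by edgeR's quasi-likelihood test over all 27229 genes tested. Log2 fold changes are given ± their standard error. The 3 comparisons share groups, so their values are not independent of each other. Replicates 1 to 4 and replicates 5 to 7 carry library numbers of separate series, and a number of values are therefore also given within each set.

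The promoters of the 41 genes and of the ER chaperones were searched for the elements known for each route. The core of the element that ATF4 binds with C/EBP partners reads TGATGNAA, N being any base, and the ER stress response element (ERSE) that ATF6 uses holds CCAAT and CCACG 9 bases apart. Both were searched on both strands of RefSeq windows reaching from 250 bases before to 50 bases after each gene's start (build GRCm38.p6). Windows were found for 34 of the 41 genes, not for Slc7a5, Slc7a3, Eif4ebp1, Cars, Lars, Nars and Wars, and for 23 of 27 ER chaperone genes. TGATGNAA stood in 14 of 34 (41.2%), against 4.51% of all 27025 genes and 1 of 23 ER chaperone genes (4.35%), that gene being Herpud1. The 14 genes were Atf3, Nupr1, Chac1, Trib3, Asns, Pycr1, Slc7a11, Vldlr, Fgf21 and the synthetases Aars, Gars, Iars, Tars and Yars. ERSE stood in none of the 34 windows, in 9 of 23 ER chaperone windows (39.1%) and in 0.137% of all genes. Both lists name genes already known for their route, so a higher share than in all genes may follow from how they were chosen. A match is a description of these letters in this window and not evidence of binding.

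Shown in full, 5′ to 3′ on the gene's strand, are the windows of Pycr1, Nupr1 and Vldlr, which hold a match and were called in HFD-O304 vs HFD (the rare Atf3 also was, and its window is not shown), of Asns and Trib3, which are textbook ATF4 targets that were called in no comparison, and of the chaperones Hspa5 and Derl3 for contrast. Capitals mark TGATGNAA or its reverse complement in the first 5, and the CCAAT and CCACG parts of ERSE or their reverse complements in the last pair. In Pycr1 (chr11:120643699-120643998, minus strand) the match ended 96 bases before the start, and in Nupr1 (chr7:126625421-126625720, minus strand) it began 110 bases before it. In Vldlr (chr19:27216770-27217069, plus strand) it began 200 bases before the start and in Asns (chr6:7693160-7693459, minus strand) 23 bases before it, while in Trib3 (chr2:152344011-152344310, minus strand) it began 15 bases into the transcript. The ERSE of Hspa5 (chr2:34771840-34772139, plus strand) began 65 bases and that of Derl3 (chr10:75893148-75893447, plus strand) 156 bases before the start.
Pycr1: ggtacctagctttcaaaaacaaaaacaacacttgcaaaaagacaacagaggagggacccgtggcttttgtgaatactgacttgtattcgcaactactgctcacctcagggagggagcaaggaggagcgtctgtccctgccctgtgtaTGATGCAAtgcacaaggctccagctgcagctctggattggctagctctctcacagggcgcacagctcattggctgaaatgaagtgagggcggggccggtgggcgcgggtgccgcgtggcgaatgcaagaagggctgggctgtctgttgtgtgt
Nupr1: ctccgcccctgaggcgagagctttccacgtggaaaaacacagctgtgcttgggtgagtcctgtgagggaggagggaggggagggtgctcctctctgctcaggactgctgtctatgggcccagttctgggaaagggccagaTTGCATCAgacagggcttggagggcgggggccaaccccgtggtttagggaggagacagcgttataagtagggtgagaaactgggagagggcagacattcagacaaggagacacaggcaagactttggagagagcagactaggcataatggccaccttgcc
Vldlr: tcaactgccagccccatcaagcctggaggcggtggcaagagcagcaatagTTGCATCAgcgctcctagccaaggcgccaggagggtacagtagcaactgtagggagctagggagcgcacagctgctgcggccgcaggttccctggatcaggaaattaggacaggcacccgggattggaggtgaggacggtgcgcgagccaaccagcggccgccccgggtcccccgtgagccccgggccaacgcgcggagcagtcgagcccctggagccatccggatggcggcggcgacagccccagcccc
Asns: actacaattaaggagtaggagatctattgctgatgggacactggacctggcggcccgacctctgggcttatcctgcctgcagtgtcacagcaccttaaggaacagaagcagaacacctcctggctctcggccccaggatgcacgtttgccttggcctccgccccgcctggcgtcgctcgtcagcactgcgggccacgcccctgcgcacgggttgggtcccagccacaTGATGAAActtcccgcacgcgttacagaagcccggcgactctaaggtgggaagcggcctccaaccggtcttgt
Trib3: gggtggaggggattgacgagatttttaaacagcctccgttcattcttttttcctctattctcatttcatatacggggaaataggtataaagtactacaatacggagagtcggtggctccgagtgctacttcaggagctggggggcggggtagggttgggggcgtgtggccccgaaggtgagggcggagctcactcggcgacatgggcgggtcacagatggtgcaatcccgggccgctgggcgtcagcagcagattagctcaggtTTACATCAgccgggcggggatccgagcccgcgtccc
Hspa5: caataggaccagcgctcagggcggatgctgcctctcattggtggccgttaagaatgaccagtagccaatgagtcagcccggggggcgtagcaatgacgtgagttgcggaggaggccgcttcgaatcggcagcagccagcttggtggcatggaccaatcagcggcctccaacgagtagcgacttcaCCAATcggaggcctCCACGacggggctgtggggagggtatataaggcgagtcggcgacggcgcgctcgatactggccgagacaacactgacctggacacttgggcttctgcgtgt
Derl3: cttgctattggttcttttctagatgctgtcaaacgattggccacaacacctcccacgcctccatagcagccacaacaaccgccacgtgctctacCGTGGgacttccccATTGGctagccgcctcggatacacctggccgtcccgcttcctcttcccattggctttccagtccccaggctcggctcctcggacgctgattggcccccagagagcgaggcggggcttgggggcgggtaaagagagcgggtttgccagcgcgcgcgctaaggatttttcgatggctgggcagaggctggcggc

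Of the genes with a window, TGATGNAA stood in 4 of 10 that were called different in at least 1 comparison (40%) and in 10 of 24 that were called in none (41.7%).

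Between HFD-O304 and HFD islets, 12 of the 41 genes were called, or 29.3%, where 11.9% of all genes tested were called. Of these, 10 were lower in HFD-O304, against 6.79% of all genes lower, and 2 were higher, against 5.08% of all genes higher. Between HFD and RD, 2 genes were called, with 3.54% of all genes called: Pycr1 was higher, as were 2.00% of all genes, and Vldlr was lower, as were 1.54%. That count was 5 without HFD replicate 7 (5.89% of all genes called), 4 without RD replicate 3 (3.24%), 6 by DESeq2 (6.46%), 6 with a replicate block (5.79%) and 6 with the library set in the fit (5.92%). In the median of the 41 genes HFD replicate 7 was the lowest HFD sample (-0.098) and RD replicate 3 lay high in RD (0.21). Leaving out either widens the difference by itself. Between HFD-O304 and RD, 3 genes were called, with 1.31% of all genes called: Vldlr was higher, as were 0.404% of all genes, and Phgdh and Nupr1 were lower, as were 0.903%. The median log2 fold change of the 41 genes was 0.047 for HFD vs RD, -0.10 for HFD-O304 vs RD and -0.18 between HFD-O304 and HFD, beside medians over all genes of -0.0044, 0.0078 and 0.027. For 8 of the 41 genes the 7 HFD-O304 and the 7 HFD values did not overlap at all, as happened for 6.17% of all genes. The other 29 genes were called in none of the 3 comparisons. Of the 27229 genes tested, 13216 averaged at least 50 normalized counts, while 35 of the 41 genes averaged at least 100. Rare genes are called less readily, so the shares of all genes given here and below are not matched for level.

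**Figure D1:**
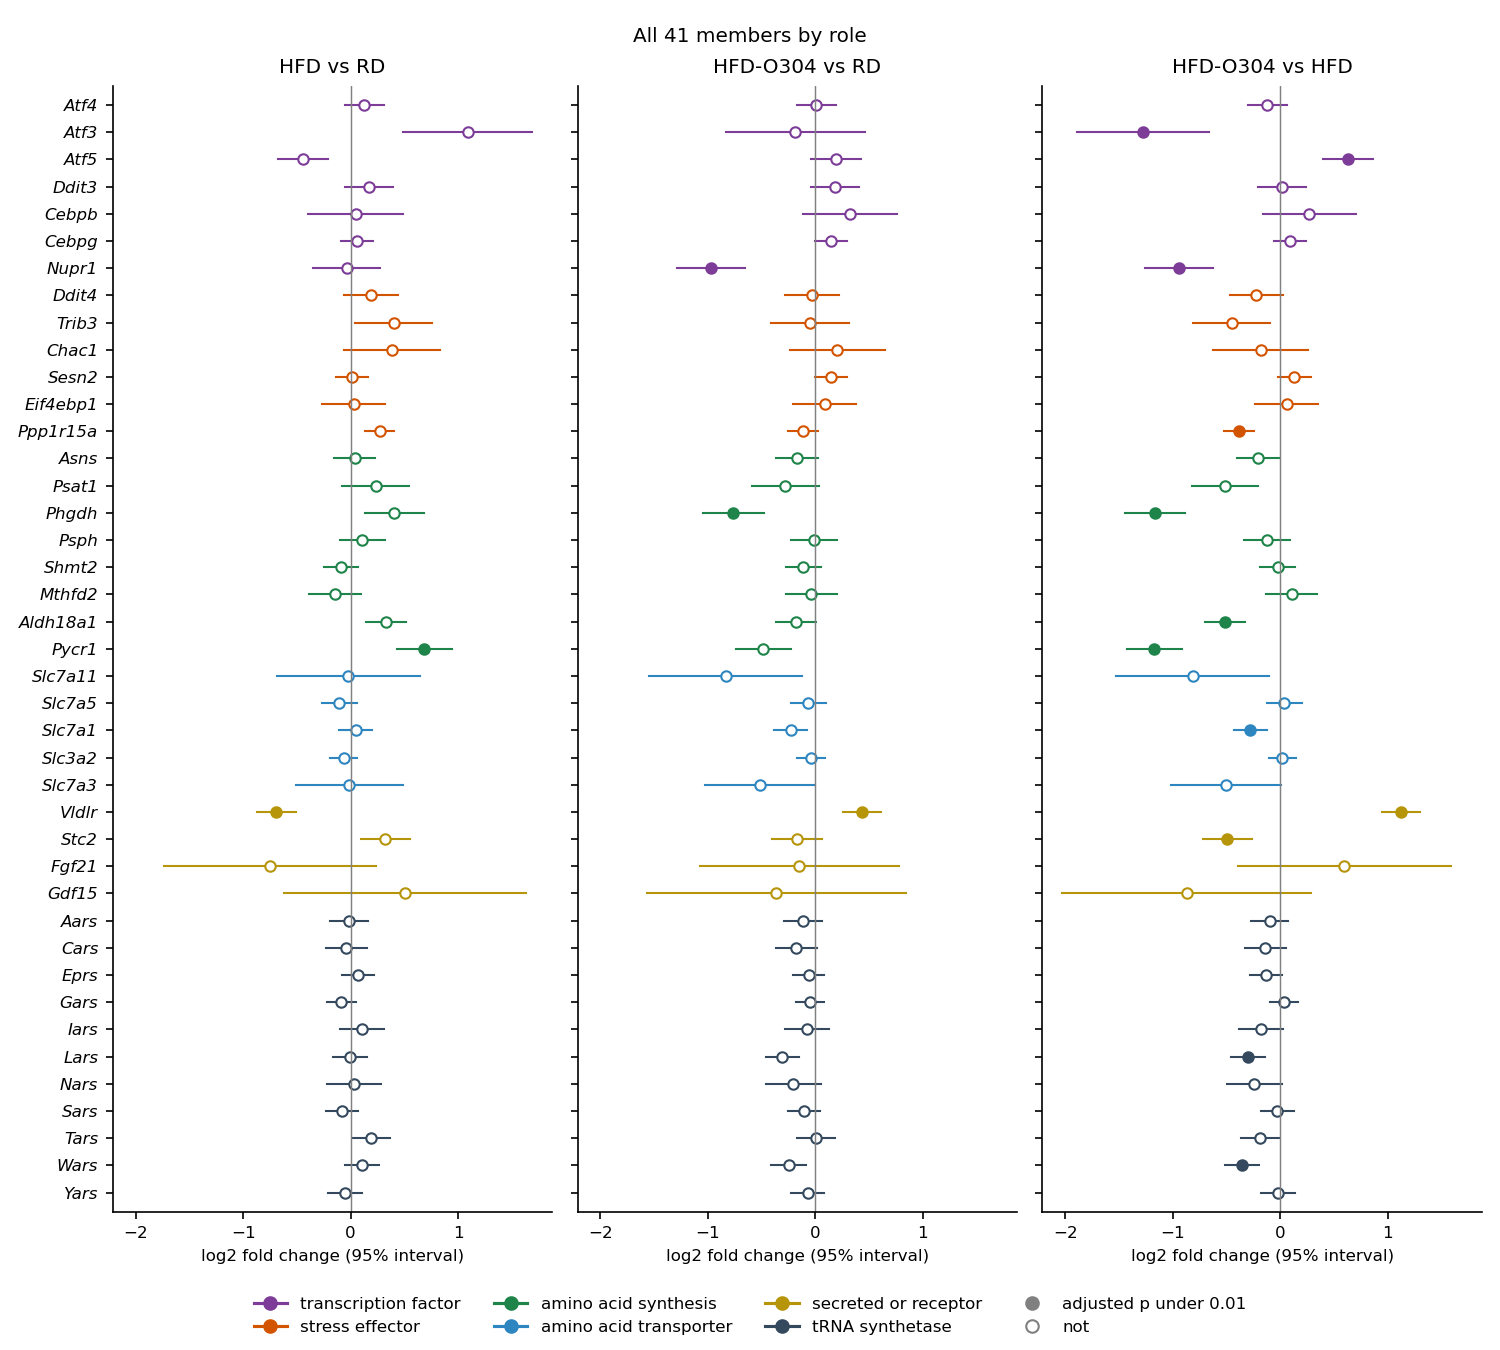
Log2 fold change of each of the 41 genes with its 95% interval in the 3 comparisons, coloured by role, with filled points for an adjusted p under 0.01. The 11 synthetases lie between -0.35 and 0.19 in every panel, while Pycr1, Phgdh and Nupr1 lie near -1 and Vldlr near 1 in HFD-O304 vs HFD.

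Among the enzymes of amino acid synthesis, Pycr1 of the proline branch and Phgdh of the serine branch moved most in HFD-O304 vs HFD, both at -1.17. Pycr1 encodes pyrroline-5-carboxylate reductase, which makes proline in mitochondria, and Aldh18a1 encodes the enzyme that makes its precursor from glutamate. Pycr1 ranged from 1600.5 to 2464 normalized counts (median 1941) in RD, from 1974 to 4464 (median 3469) in HFD and from 1340.2 to 1717 (median 1444) in HFD-O304. HFD replicate 7, at 1974, was the only HFD sample inside the RD range, and all 7 HFD-O304 samples lay below all 7 HFD samples. Pycr1 was 1.61-fold higher in HFD than in RD (log2 fold change 0.69 ± 0.12, adjusted p = 0.000779). From HFD to HFD-O304 it fell 2.25-fold (log2 fold change -1.17 ± 0.12, adjusted p = 1.38e-07), and its log2 fold change against RD was -0.49 ± 0.12 with an adjusted p of 0.0262, past the threshold in 7 of 36 alternative analyses. Replicates 1 to 4 alone gave -0.64 against RD (adjusted p = 0.00558), and replicates 5 to 7 alone gave -0.26 (adjusted p = 0.323).

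Aldh18a1 ranged from 3094 to 4451 normalized counts (median 3296) in RD, from 3680.0 to 5751 (median 4604) in HFD and from 3064 to 3407 (median 3251) in HFD-O304. The HFD-O304 samples were the most alike of the 3 groups, and none reached the HFD range. Aldh18a1 was 1.43-fold lower in HFD-O304 than in HFD (log2 fold change -0.52 ± 0.090, adjusted p = 0.000119). Against RD, HFD samples had a log2 fold change of 0.33 ± 0.090 (adjusted p = 0.0194), which missed the threshold. That value was past it with the replicate number as a block (adjusted p = 0.00602), with the library set in the fit (0.00314) and by DESeq2 (0.00567), among 9 alternative settings. The fall from HFD to HFD-O304 was -0.68 over replicates 1 to 4 and -0.29 over replicates 5 to 7, where its adjusted p of 0.0113 missed the threshold.

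The serine branch was led by Phgdh, which encodes phosphoglycerate dehydrogenase, the first enzyme of serine synthesis. Phgdh ranged from 496 to 933 normalized counts (median 736) in RD, from 696 to 1179 (median 1097) in HFD and from 351 to 599 (median 441) in HFD-O304. The HFD and HFD-O304 ranges did not overlap, and 6 of 7 HFD-O304 samples lay at or under 499, near the lowest RD sample. Phgdh fell 2.25-fold from HFD to HFD-O304 (log2 fold change -1.17 ± 0.14, adjusted p = 6.21e-07) and was also 1.70-fold lower in HFD-O304 than in RD (log2 fold change -0.76 ± 0.14, adjusted p = 0.00124). The next enzymes of the pathway, Psat1 and Psph, were not called over the 21 samples. Psat1 ranged from 300.4 to 551 normalized counts (median 347) in RD, from 306 to 742 (median 399.7) in HFD and from 285 to 364 (median 331) in HFD-O304, and its log2 fold change of -0.51 ± 0.15 in HFD-O304 vs HFD had an adjusted p of 0.0162. It was past the threshold by DESeq2 (adjusted p = 0.00526) and without HFD replicate 7 (0.00325), among 6 alternative settings. That replicate was the lowest HFD sample, at 306, so leaving it out widens the difference by itself. Over replicates 1 to 4 alone Psat1 was at -0.84 (adjusted p = 0.00317) and over replicates 5 to 7 alone at -0.047 (adjusted p = 0.863), and the test of that difference between sets gave an unadjusted p of 0.00312 and an adjusted p of 0.835 in edgeR. For Psph the 3 log2 fold changes lay between -0.13 and 0.11.

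The remaining enzymes were Asns, which makes asparagine and is among the best known ATF4 targets, and Shmt2 and Mthfd2, which pass 1-carbon units through mitochondrial folate. Asns ranged from 2901 to 4502 normalized counts (median 2977) in RD, from 3015 to 4321 (median 3495) in HFD and from 2761 to 3510.5 (median 2876) in HFD-O304, with all 3 ranges overlapping. Its log2 fold change in HFD-O304 vs HFD was -0.21 ± 0.095, with a 95% interval of -0.40 to -0.012 and an adjusted p of 0.14. Shmt2 and Mthfd2 averaged 638 ± 56.6 and 1266 ± 206 normalized counts (SD, n = 7) in HFD, and their log2 fold changes stayed between -0.15 and 0.11 in all 3 comparisons. Of the 8 synthesis genes, 3 were called in HFD-O304 vs HFD (beside 11.9% of all genes), all lower, and 7 of 8 had a negative sign.

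**Figure D2:**
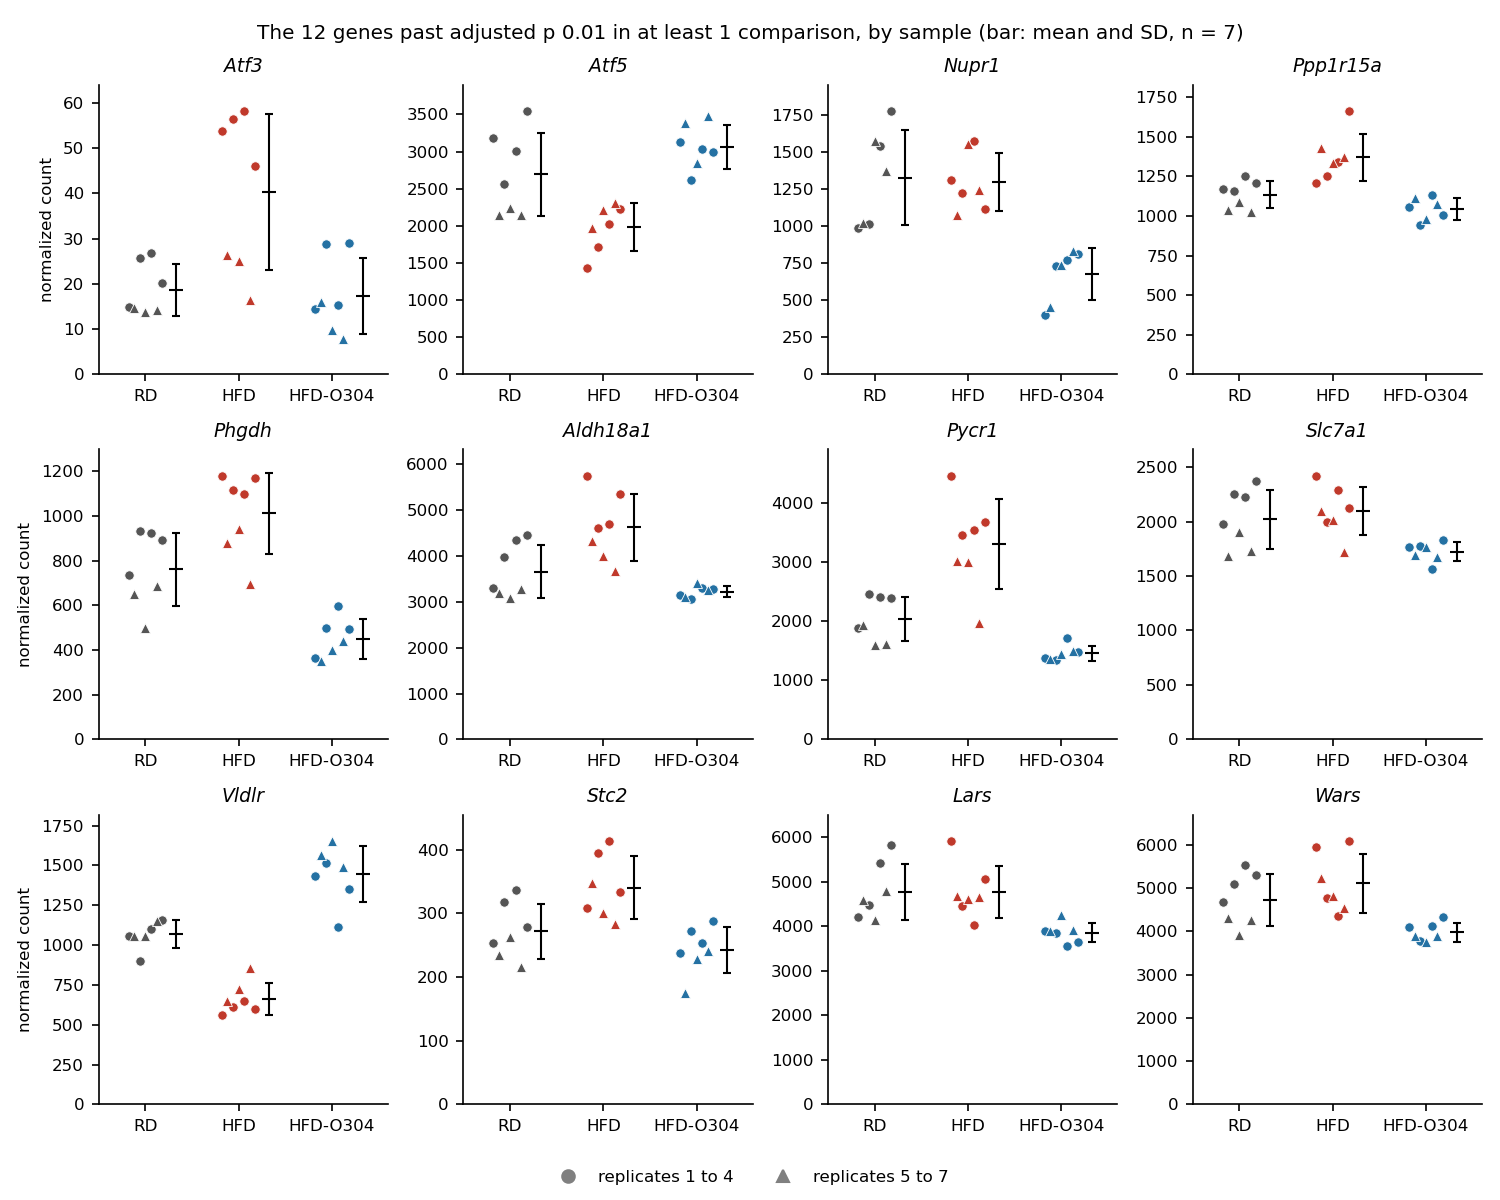
Normalized count of the 12 genes called in at least 1 comparison, in every sample, with the mean and SD of each group (n = 7) and different symbols for replicates 1 to 4 and 5 to 7. Vldlr and Atf5 are lowest in HFD, Nupr1 is low in HFD-O304 alone, and Pycr1 of HFD replicate 7 lies among the RD samples.

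Among the transcription factors, Atf4 itself was not called in any comparison. Atf4 ranged from 6405 to 9789 normalized counts (median 7611) in RD, from 7477 to 10089 (median 8652) in HFD and from 6479.7 to 8777 (median 8062) in HFD-O304. The 3 ranges lay almost on top of each other, and the 95% intervals of the log2 fold change were -0.053 to 0.31 for HFD vs RD, -0.17 to 0.19 for HFD-O304 vs RD and -0.30 to 0.061 between HFD-O304 and HFD. Per kilobase of exon, Atf4 was the most abundant of the 41 genes in RD, at 3404 ± 521 normalized counts per kb (SD, n = 7), followed by Gars at 2334 ± 256 and Slc3a2 at 2207 ± 223.

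Ddit3, which encodes CHOP and is the usual marker of prolonged ER stress, ranged from 309.6 to 487 normalized counts (median 389) in RD, from 361 to 512 (median 445) in HFD and from 346 to 489 (median 445) in HFD-O304. No group stood apart, and the HFD and HFD-O304 means were 432 ± 61.7 and 434 ± 56.0 normalized counts (SD, n = 7). The log2 fold change in HFD-O304 vs HFD was 0.016 ± 0.11, with an interval of -0.21 to 0.24. Read pairs that fall on the 6.13% of its exonic bases shared with a second, short Ddit3 gene model are not in this count.

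Nupr1 encodes a small chromatin protein induced by stress. Nupr1 ranged from 989.7 to 1779 normalized counts (median 1372) in RD, from 1077 to 1573 (median 1246) in HFD and from 399 to 832 (median 737) in HFD-O304. All 7 HFD-O304 samples lay below every sample of both other groups, and HFD and RD overlapped. Nupr1 was 1.97-fold lower in HFD-O304 than in RD (log2 fold change -0.97 ± 0.15, adjusted p = 0.000304) and 1.92-fold lower than in HFD (log2 fold change -0.94 ± 0.15, adjusted p = 5.61e-05), while HFD vs RD gave -0.035 ± 0.15. Acinar cells are known to express Nupr1, and the summed level of 13 acinar genes, none at 0, spanned 3943 to 336442 normalized counts in RD, 1059 to 258154 in HFD and 753 to 111094 in HFD-O304, with none of the 13 called. With the acinar level in the fit, the Nupr1 log2 fold changes were -0.93 against RD and -0.94 against HFD, both still past the threshold.

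Atf5, a relative of Atf4 that is translated in the same way, ran opposite to the enzymes. Atf5 ranged from 2142 to 3547 normalized counts (median 2557) in RD, from 1428 to 2312 (median 2029.8) in HFD and from 2620.2 to 3473 (median 3031) in HFD-O304. Every HFD-O304 sample lay above every HFD sample. The gene was 1.55-fold higher in HFD-O304 than in HFD (log2 fold change 0.63 ± 0.11, adjusted p = 0.000145), and in HFD vs RD its value was -0.44 ± 0.11 (adjusted p = 0.0129), not past the threshold. That pooled value joins unlike sets. Over replicates 1 to 4 Atf5 was lower in HFD than in RD (-0.73, adjusted p = 0.00181), and over replicates 5 to 7 the value was -0.0095 (adjusted p = 0.972). In HFD-O304 vs RD the sets gave -0.072 (adjusted p = 0.897) and 0.57 (adjusted p = 0.000924). The test of the difference between sets gave unadjusted p-values of 0.000224 and 0.000958 in these comparisons, with adjusted p-values of 0.339 and 0.854 in edgeR. In HFD-O304 vs HFD the sets lay at 0.66 and 0.58.

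Atf3, an immediate stress factor, was rare in these islets. Atf3 ranged from 13.8 to 26.8 normalized counts (median 14.9) in RD, from 16.5 to 58.3 (median 46.0) in HFD and from 7.86 to 29.1 (median 15.2) in HFD-O304. In HFD the 4 samples of replicates 1 to 4 lay above all others, and the 3 HFD samples of replicates 5 to 7 lay at 16.5 to 26.3, within the RD and HFD-O304 ranges. Atf3 was 2.42-fold lower in HFD-O304 than in HFD (log2 fold change -1.28 ± 0.30, adjusted p = 0.00252), at -1.36 (adjusted p = 0.00266) within replicates 1 to 4 and -0.996 (adjusted p = 0.083) within replicates 5 to 7. Cebpb and Cebpg, the C/EBP partners, were called in none of the 3 comparisons, with group means of 57.5 ± 11.6 and 2246 ± 203 normalized counts (SD, n = 7) in RD.

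Among the stress effectors, only Ppp1r15a was called. It encodes GADD34, the phosphatase subunit that reverses eIF2 phosphorylation. Ppp1r15a ranged from 1028 to 1252 normalized counts (median 1159.7) in RD, from 1208 to 1665 (median 1339) in HFD and from 946 to 1132 (median 1059) in HFD-O304. The HFD-O304 samples lay below all HFD samples and overlapped RD. The change from HFD to HFD-O304 was a 1.31-fold fall (log2 fold change -0.38 ± 0.067, adjusted p = 0.000111), and HFD vs RD gave 0.27 ± 0.067 with an adjusted p of 0.011, just outside the threshold. With the replicate number as a block it was past the threshold (adjusted p = 0.00815), as it was with the library set in the fit (0.00633) and by DESeq2 (0.00124), among 12 alternative settings.

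The pseudokinase gene Trib3 and the glutathione-degrading Chac1, which sit downstream of ATF4 and CHOP, were called in no comparison. Trib3 ranged from 77.0 to 207 normalized counts (median 111.1) in RD, from 104.8 to 230.0 (median 156) in HFD and from 99.8 to 133 (median 114.03) in HFD-O304, and Chac1 ranged from 275.2 to 737 normalized counts (median 406) in RD, from 341 to 994 (median 459.7) in HFD and from 408 to 590.4 (median 477) in HFD-O304. In both genes 1 RD sample, replicate 2, stood far above the other RD samples, and HFD replicate 3 was the highest of all 21. Trib3 had a log2 fold change of 0.40 ± 0.17 for HFD vs RD (adjusted p = 0.175) and of -0.45 ± 0.18 between HFD-O304 and HFD (adjusted p = 0.0736). Leaving out RD replicate 2 and HFD replicate 7 together removed the highest RD and the next to lowest HFD value of Trib3, at 206.7 and 121.7. That widens the difference by itself, so the log2 fold change of 0.65, past the threshold in HFD vs RD, is no support for it. Ddit4 and Sesn2, brakes on the growth kinase mTORC1, and Eif4ebp1, a brake on cap-dependent translation, had log2 fold changes between -0.22 and 0.19 in the 3 comparisons, none of them called.

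**Figure D3:**
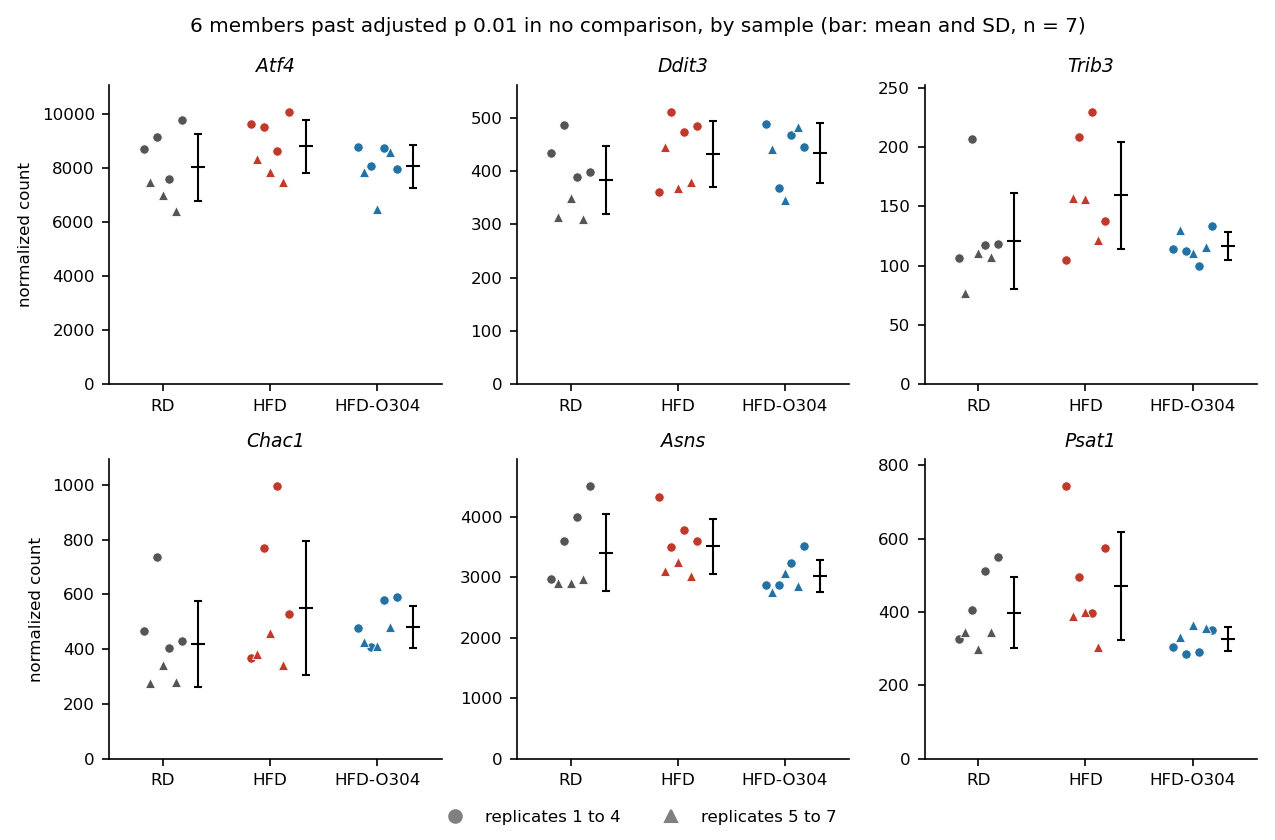
Normalized count in every sample of 6 genes called in no comparison, with the mean and SD of each group (n = 7). Atf4, Ddit3 and Asns overlap across groups, and RD replicate 2 and HFD replicate 3 stand high in Trib3 and Chac1.

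Of the 5 amino acid transporters, Slc7a1 alone was called, and narrowly. It carries the cationic amino acids arginine and lysine. Slc7a1 ranged from 1687 to 2372 normalized counts (median 1976) in RD, from 1721 to 2419.6 (median 2101) in HFD and from 1566 to 1828 (median 1766) in HFD-O304, so HFD and HFD-O304 overlapped through HFD replicate 7. Its log2 fold change in HFD-O304 vs HFD was -0.28 ± 0.075 (adjusted p = 0.00922), and it kept this call in 17 of 36 alternative analyses, missing the threshold in 15 of the 21 that left out 1 sample. The heterodimer of Slc7a5 and Slc3a2, which imports leucine, was abundant, at 3879 ± 583 and 7787 ± 788 normalized counts (SD, n = 7) in RD, and its log2 fold changes lay between -0.11 and 0.040. Slc7a11, the cystine importer, and Slc7a3 reached at most 27.5 and 25.6 normalized counts in any sample, and neither was called. Slc7a11 lay at -0.84 ± 0.35 in HFD-O304 vs RD (adjusted p = 0.237) and -0.81 ± 0.35 between HFD-O304 and HFD (adjusted p = 0.107). Slc7a3 lay at -0.52 ± 0.25 (adjusted p = 0.347) and -0.50 ± 0.25 (adjusted p = 0.182).

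The receptors and secreted factors held the gene that moved most surely. Vldlr encodes the very low density lipoprotein receptor and is a known target of ATF4 under ER stress. Vldlr ranged from 901 to 1159 normalized counts (median 1060.0) in RD, from 558 to 859 (median 651) in HFD and from 1112 to 1654 (median 1493) in HFD-O304. All 7 HFD samples lay below all 7 RD samples and below all 7 HFD-O304 samples, and in HFD-O304 all but replicate 3, at 1112, lay above the RD range. Vldlr was 1.61-fold lower in HFD than in RD (log2 fold change -0.69 ± 0.087, adjusted p = 1.88e-05), 2.18-fold higher in HFD-O304 than in HFD (log2 fold change 1.12 ± 0.087, adjusted p = 8.96e-10) and 1.35-fold higher in HFD-O304 than in RD (log2 fold change 0.44 ± 0.086, adjusted p = 0.00323). The last call was lost within replicates 1 to 4 (log2 fold change 0.34, adjusted p = 0.123) and without HFD-O304 replicate 6 (0.40, adjusted p = 0.0103).

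Stc2, a secreted glycoprotein induced by ER stress, ranged from 216 to 337 normalized counts (median 262) in RD, from 282 to 414 (median 333) in HFD and from 174 to 288 (median 242) in HFD-O304. The HFD and HFD-O304 ranges met only at the lowest HFD and the highest HFD-O304 sample. Stc2 was 1.41-fold lower in HFD-O304 than in HFD (log2 fold change -0.49 ± 0.11, adjusted p = 0.00213). The circulating stress hormones Fgf21 and Gdf15 were nearly silent, with at most 13.2 and 10.5 normalized counts in any sample, and no difference was detectable.

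The 11 tRNA synthetases, which load each tRNA with its amino acid, were abundant, and few of them were called. Their group means in RD ran from 1769 ± 297 (Cars) to 7279 ± 798 normalized counts (Gars; SD, n = 7). In HFD vs RD none was called by edgeR or by DESeq2, with Tars alone at an unadjusted p under 0.05, and the log2 fold changes lay between -0.085 (Gars) and 0.19 (Tars). In HFD-O304 vs HFD, 2 of 11 were called (beside 11.9% of all genes), both lower, 10 of 11 had a negative sign, and the median was -0.14. The 95% intervals of the 11 log2 fold changes in that comparison reached from -0.52 (Wars) to 0.17 (Gars). In HFD-O304 vs RD none was called by edgeR, 10 of 11 had a negative sign, and the median was -0.10. Lars had the lowest value there, at -0.31 ± 0.076 (adjusted p = 0.0219 in edgeR, 0.0061 in DESeq2). These pooled values join unlike library sets. The median deviation of the 11 from their mean over the 21 samples was -0.026 to 0.30 (log2) in RD replicates 1 to 4. It was -0.22 to -0.11 in RD replicates 5 to 7 and -0.14 to 0.035 in HFD-O304. For HFD-O304 vs RD, the edgeR test of the difference between sets had unadjusted p under 0.05 for Aars, Iars, Nars, Sars, Tars and Yars. Their adjusted p was 0.854.

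Wars, the tryptophan enzyme, ranged from 3920.3 to 5529 normalized counts (median 4689) in RD, from 4356 to 6095 (median 4828) in HFD and from 3747 to 4338 (median 3891) in HFD-O304. The HFD-O304 samples lay just below all HFD samples, and the fall was 1.28-fold (log2 fold change -0.35 ± 0.079, adjusted p = 0.00159). Lars, the leucine enzyme, ranged from 4129 to 5820.2 normalized counts (median 4587) in RD, from 4026 to 5913 (median 4649) in HFD and from 3559 to 4249 (median 3888) in HFD-O304. HFD replicate 3 was the only HFD sample inside the HFD-O304 range for Lars, and the log2 fold change was -0.30 ± 0.076 (adjusted p = 0.00531), a call kept in 28 of 36 alternative analyses. Both genes lay within 0.11 of 0 in HFD vs RD. Aars, Cars, Eprs, Gars, Iars, Nars, Sars, Tars and Yars were called in none of the 3 comparisons. The Aars count lacks read pairs on the 14.3% of its exonic bases that it shares with Exosc6.

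The ER chaperones, a list of 27 genes for folding and quality control in the ER, gave a different picture in the same samples. In HFD-O304 vs HFD, 17 of 27 were called (63%, beside 11.9% of all genes), all lower, and the list's median on the log2 scale was -0.58, where 12 of the 41 ATF4 and synthetase genes were called in both directions with a median of -0.18. In HFD vs RD the chaperones had a median of 0.36 and 23 of 27 positive signs, with 1 called (3.54% of all genes), and in HFD-O304 vs RD a median of -0.25 with 1 called (1.31% of all genes). The count in HFD vs RD was 14 with the library set in the fit, where 5.92% of all genes were called, and 8 without HFD replicate 7, where 5.89% were. That replicate had the lowest chaperone median in HFD (-0.093), so leaving it out widens the difference by itself. The difference between the lists themselves was not tested. The chaperone list was chosen with earlier results of these data known. From the same samples the paper had reported genes of ER function and protein processing as raised in HFD islets. The list's share beside that of all genes is therefore no independent support.

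Hspa5, the master chaperone BiP, ranged from 54829 to 102199 normalized counts (median 69634) in RD, from 70000.4 to 153233 (median 97272) in HFD and from 54504 to 69778 (median 64096) in HFD-O304. HFD and HFD-O304 did not overlap, and the fall between them was 1.70-fold (log2 fold change -0.77 ± 0.16, adjusted p = 0.000656). Derl3, which draws misfolded protein out of the ER, ranged from 867 to 2136 normalized counts (median 1323) in RD, from 1185 to 3849.5 (median 2768) in HFD and from 598 to 1109 (median 726) in HFD-O304. It was the chaperone-list gene called in all 3 comparisons, with log2 fold changes of 0.95 ± 0.21 for HFD vs RD (adjusted p = 0.00414), -0.94 ± 0.21 for HFD-O304 vs RD (adjusted p = 0.00941) and -1.89 ± 0.21 between HFD-O304 and HFD (adjusted p = 3.4e-07). Creld2 and Manf, secreted proteins of the ER stress response, and P4hb, a protein disulfide isomerase, were lower in HFD-O304 than in HFD by 2.72-fold, 1.63-fold and 1.69-fold.

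**Figure D4:**
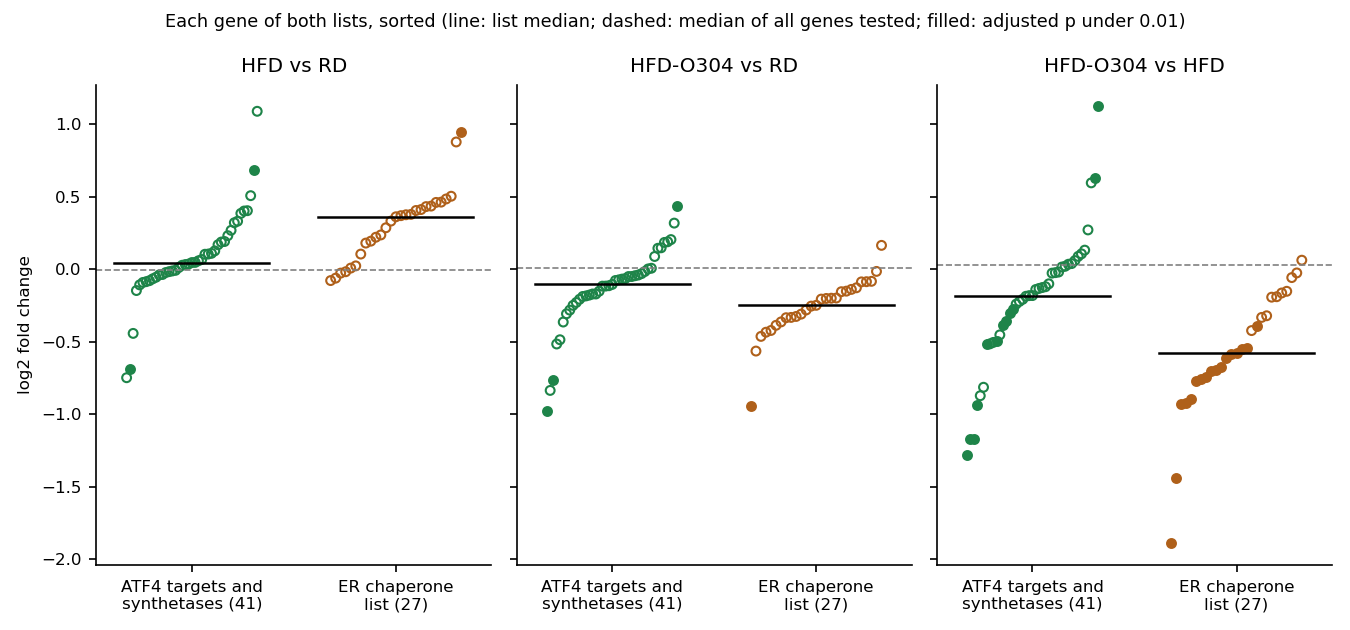
Log2 fold change of every gene of the 41-gene list and of the 27-gene ER chaperone list, sorted within each list, with the list median as a line, the median of all genes tested dashed, and filled points for an adjusted p under 0.01. In HFD-O304 vs HFD the chaperone median is -0.58 and that of the 41 genes -0.18.

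Within RD many of the 41 genes differed between the sets of libraries. In 22 of the 41 genes, 8 synthetases among them, RD replicates 1 to 4 all lay above RD replicates 5 to 7, as happened for 5.96% of all genes tested. In HFD this held for 14 of 41 (6.88% of all genes) and in HFD-O304 for 3 (4.37%). The median deviation of the 41 genes from their mean over the 21 samples was -0.0046 to 0.24 (log2) in RD replicates 1 to 4 and -0.19 to -0.17 in RD replicates 5 to 7. It was 0.091 to 0.22 in HFD replicates 1 to 4 and -0.098 to 0.019 in HFD replicates 5 to 7. HFD-O304 samples of both sets lay together, between -0.13 and 0.026.

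Values within each set stand beside the pooled ones for this reason. The median log2 fold change of the 41 genes in HFD-O304 vs RD was -0.25 over replicates 1 to 4 alone and 0.086 over replicates 5 to 7 alone, while in HFD-O304 vs HFD it was -0.27 and -0.041. A test of the difference between sets called no gene at an adjusted p under 0.01 in edgeR. At an unadjusted p under 0.05 it held 14 of the 41 genes in HFD-O304 vs RD, with 5.57% of all genes there, 3 of them in HFD vs RD (6.84%) and 4 between HFD-O304 and HFD (4.83%). Vldlr, Pycr1, Phgdh, Nupr1, Atf5 and Ppp1r15a were past the threshold in HFD-O304 vs HFD within each set alone. Stc2 and Lars missed it within each set, Wars within replicates 1 to 4, and Aldh18a1, Atf3 and Slc7a1 within replicates 5 to 7. Against RD, Nupr1 in HFD-O304 missed it within each set at -0.99 (adjusted p = 0.0259) and -0.97 (adjusted p = 0.0103), and Phgdh in HFD-O304 (adjusted p = 0.0167) and Pycr1 in HFD (adjusted p = 0.0101) missed it within replicates 5 to 7.

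**Figure D5:**
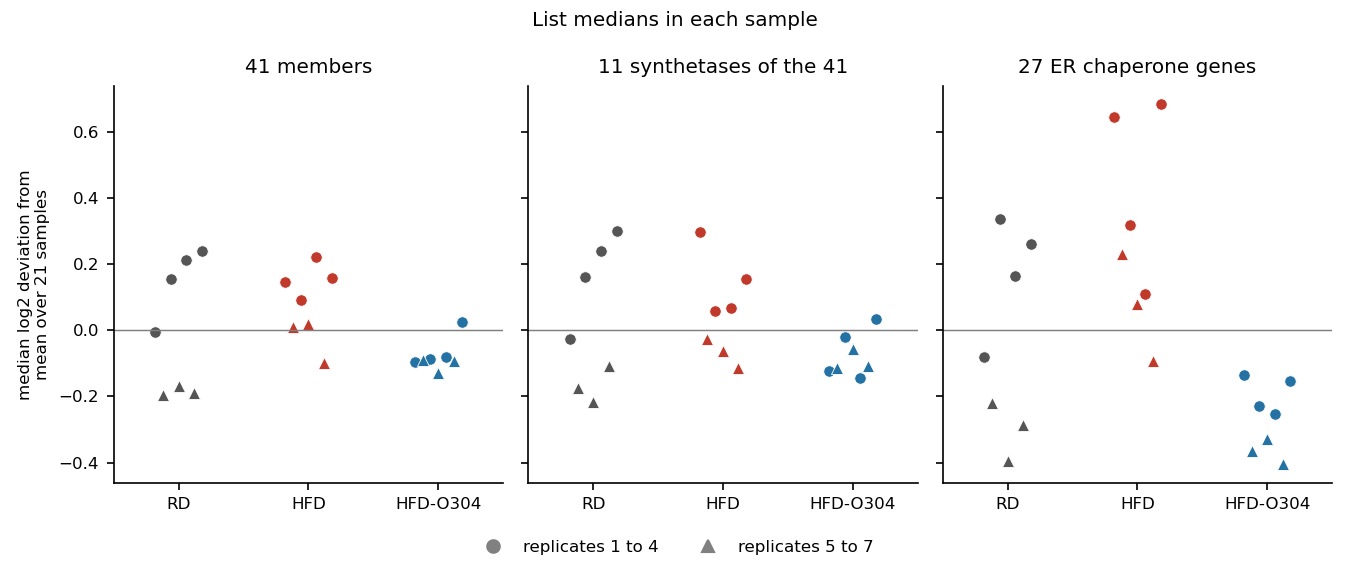
Median log2 deviation of 3 gene lists from each gene's mean over the 21 samples, in every sample, with different symbols for replicates 1 to 4 and 5 to 7. In RD the sets are apart in all 3 lists, and the HFD-O304 samples of the 41 genes lie between -0.13 and 0.026.

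Markers of other processes moved with the same groups. Of all genes, 11.9% were called in HFD-O304 vs HFD and 3.54% in HFD vs RD. Of 12 proliferation genes 11 were higher in HFD than in RD and 11 were lower in HFD-O304 than in HFD, and their summed level spanned 1652 to 2239 normalized counts in RD, 1858 to 6693 in HFD and 1278 to 1842 in HFD-O304. The lowest HFD sum was that of replicate 7, the sample in which Pycr1 lay in the RD range. With the proliferation level as a covariate, edgeR called 0 of the 41 genes in HFD-O304 vs HFD and 0.118% of all genes, with 6 of the 41 at an unadjusted p under 0.05, and the log2 fold change of Pycr1 was -0.36 and that of Vldlr 0.67. In that fit Aldh18a1 lay at -0.052 (-0.52 without the covariate), Phgdh at -0.46 (-1.17), Stc2 at -0.12 (-0.49) and Wars at -0.12 (-0.35). Ppp1r15a lay at -0.44 ± 0.13 (-0.38 ± 0.067) and Nupr1 at -0.75 ± 0.29 (-0.94 ± 0.15). Their standard errors were wider with the covariate, and neither was called. The covariate was chosen after seeing the data and follows the diet groups, and the summed levels of HFD and HFD-O304 did not overlap. This fit therefore cannot separate the proliferation level from the group, and no conclusion is drawn from the lost calls. Of 6 alpha cell genes, 4 were lower and 1, Ttr, was higher in HFD than in RD, with a summed level of the 6, none at 0, of 839335 to 1049680.0 in RD, 377188 to 694911 in HFD and 852105 to 1142200.0 in HFD-O304. Among the other lists in HFD-O304 vs HFD, 3 of 3 delta cell and 3 of 5 duct genes were higher, 3 of 4 stromal and 2 of 6 endothelial genes were lower, and 1 of 6 macrophage genes was higher. Of the 10 beta cell genes 3 were higher and 3 lower. In HFD vs RD, 2 of 3 delta cell genes were lower, none of the 4 stromal genes was called by edgeR (median 0.72, 4 at an unadjusted p under 0.05), and of the beta cell genes 1 was higher and 2 lower. The summed level of the stromal genes spanned 1468 to 2634 normalized counts in RD, 1628 to 4491 in HFD and 1101 to 2707 in HFD-O304, and that of the delta cell genes 86398 to 138140.0, 47104 to 104829 and 83722 to 160080.0. What part any of these lists had in the changes of the 41 genes was not tested further.

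Other genes of the pathway were counted for context, where 11.9% of all genes were called in HFD-O304 vs HFD and 3.54% in HFD vs RD. In HFD-O304 vs HFD, 15.4% of the genes upstream of ATF4 and 16% of the other amino acid genes were called. So were 25% of the further cytosolic and 5.88% of the mitochondrial synthetases, and no list was tested against the share of all genes. Of 13 genes upstream of ATF4 (the eIF2 kinases, eIF2B and their regulators), 2 were called in HFD-O304 vs HFD: Impact, an inhibitor of the kinase GCN2, was higher (log2 fold change 0.58, adjusted p = 4.99e-07) after being lower in HFD vs RD (-0.35, adjusted p = 0.00147), and Eif2b4 was lower (-0.29, adjusted p = 0.00692). Of 12 further cytosolic synthetases, Qars, Hars and Kars were lower in HFD-O304 than in HFD (-0.40, -0.53 and -0.41) and none was higher. Of 17 mitochondrial synthetases, only Lars2 was called (-0.62). Of 25 other amino acid genes, 5 were called in HFD vs RD, all lower, and 4 in HFD-O304 vs HFD, 3 higher and 1 lower. Among them the cationic amino acid carrier Slc7a2 was lower in HFD (-0.65) and higher in HFD-O304 than in HFD (0.82), as was glutamine synthetase, Glul (-0.36 and 0.69). The glutamine carrier Slc1a5 was lower in HFD-O304 than in HFD (-1.08) and than in RD (-0.65). In 13 immediate early genes, which mark stress during islet isolation, the median log2 fold change was -0.060 for HFD vs RD, -0.12 for HFD-O304 vs RD and 0.14 between HFD-O304 and HFD.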

How the data were processed

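RNA was sequenced from 21 islet samples, 7 per group, grouped by their labels. The authors aligned 50-nt read pairs to GRCm38 with STAR and Ensembl release 96, and deposited raw counts of read pairs per gene and strand, not normalized. The deposited counts leave out pairs that match several places or genes, which lowers overlapping genes. HFD-O304 replicate 1 carries the title HFD-O304 but the diet tag HFD, and its title was used. Here the counts of the strand that fits the library kit were taken, 28.8 to 36.3 times those of the other strand. Pooled mice are the unit, so p-values measure the spread between pools.

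Genes with at least 10 reads over all samples (27229) were fitted in edgeR 4.0.16 (R 4.3.3), with TMM scaling, 3 groups together, no covariate, quasi-likelihood tests and Benjamini-Hochberg adjustment over all genes, called at an adjusted p under 0.01. Normalized counts were counts divided by size factors of DESeq2 1.42.0. The precision is set by 7 samples per group and, for rare genes, by the shallowest sample. The fits were tested on simulated data. No 2 samples of a group agreed within counting error, over 63 pairs. Alternatives were DESeq2, other scaling, filters and strand, 2 groups alone, replicate blocks, library sets, marker covariates, another threshold and each sample left out. Values are given for every gene of the 41 past the threshold and for Atf4 and Ddit3, and for Hspa5 with the 4 chaperone genes of lowest adjusted p in HFD-O304 vs HFD, and at most 3 such genes of any other list. Other genes of the 41, such as Trib3, Chac1 and Asns, were named after their values were seen. Members and lists were chosen with earlier results of these data known. Promoter windows came from RefSeq (GRCm38.p6). Python 3.11.15, pandas 2.3.3 and matplotlib 3.10.9 made tables and figures.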

Additional observations from a re-analysis of the deposited data

Results flagged for a closer look

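In 19 named genes and 3 groups, 57 sets of 7 values were searched for a sample far from the rest of its group, and 3 were found, where chance flags about 1 set in 20. Atf4 in HFD-O304 replicate 6 was at 6479.7 normalized counts, below the other 6 samples at 7843 to 8777. Pycr1 in HFD-O304 replicate 3 was at 1717 normalized counts, above the other 6 at 1340.2 to 1497. Vldlr in RD replicate 2 was at 901 normalized counts, below the other 6 at 1058 to 1159.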

How the results depend on the processing

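Of 612 values of called genes under alternative settings (17 calls, 36 alternatives), 560 kept direction and call, 50 lost the call and 2 changed sign. With the proliferation level as a covariate, chosen after seeing the data, 16 of 17 calls were lost, and Atf3 (0.45) and Slc7a1 (0.023) changed sign in HFD-O304 vs HFD. Among the lost calls, Ppp1r15a lay at -0.44 (-0.38 without the covariate) and Nupr1 at -0.75 (-0.94) in that comparison. Their standard errors were 0.13 (0.067) and 0.29 (0.15), and Aldh18a1 lay at -0.052 (-0.52) and Phgdh at -0.46 (-1.17). That covariate follows the diet groups, and the cause was not tested.

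For the 41 genes in HFD vs RD, where 2 were called, the count was 6 with DESeq2 (6.46% of all genes), 4 with unstranded counts (3.17%), 6 with a replicate block (5.79%), 6 with the library set as a covariate (5.92%), 6 at an adjusted p under 0.05 (7.89%), 8 without RD replicate 2 and HFD replicate 7 (6.54%), 0 with the proliferation (0.00367%) and 4 with the immediate early covariate (5.75%), and 2 to 5 with 1 sample left out (4 without RD replicate 3, 5 without HFD replicate 7). In the median of the 41 genes RD replicates 2 and 3 lay high in RD (0.15 and 0.21) and HFD replicate 7 lowest in HFD (-0.098). Leaving out any of these, alone or together, widens that difference by itself. In HFD-O304 vs RD, where 3 were called, the count was 5 with DESeq2 (2.67% of all genes), 5 at an adjusted p under 0.05, 1 with the proliferation covariate and 2 to 4 with 1 sample left out. In HFD-O304 vs HFD, where 12 were called, it was 7 in replicates 5 to 7 alone, 0 with the proliferation covariate and 10 to 13 with 1 sample left out.

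For the ER chaperones in HFD vs RD, where 1 was called, the count was 5 with DESeq2, 3 with no filter, 0 with only the 2 groups, 12 with a replicate block, 14 with the library set as a covariate, 2 in replicates 1 to 4, 11 in replicates 5 to 7, 2 with the acinar covariate, 8 at an adjusted p under 0.05, 14 without RD replicate 2 and HFD replicate 7, 0 with the proliferation and 7 with the immediate early covariate, and 0 to 8 with 1 sample left out (6 without RD replicate 2, 8 without HFD replicate 7). In the chaperone median RD replicate 2 was highest in RD (0.34) and HFD replicate 7 lowest in HFD (-0.093). Leaving out either or both widens that difference by itself. In HFD-O304 vs RD, where 1 was called, the count was 0 with filterByExpr, with unstranded counts, in replicates 5 to 7 and with the proliferation covariate, 2 with the library set and 0 to 1 with 1 sample left out. In HFD-O304 vs HFD, where 17 were called, it was 0 with the proliferation covariate and 14 to 18 with 1 sample left out.

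The replicate numbers share no stated batch and were not taken as pairing in the main fit. Same-numbered deviations nevertheless correlated over 0.1 in 4, 6 and 5 of 7 pairs (HFD vs RD, HFD-O304 vs RD, HFD-O304 vs HFD). Their mean r was 0.20, 0.29 and 0.14, with lowest values of -0.54, -0.14 and -0.36. The best match bore the same number for 3, 2 and 2 of the 7 samples of the first-named group. Likeness by number was not told apart from likeness by library set. Under the replicate block the count of the 41 genes in HFD-O304 vs HFD was 12, in HFD-O304 vs RD 4, and all 17 calls of single genes held. In HFD vs RD the block raised the count from 2 to 6 of the 41 genes and from 1 to 12 of the ER chaperones. Depth limits the rare genes: Fgf21, Gdf15 and Slc7a11 had few reads and wide intervals, and none was called. Removing the sample labelled HFD in one tag and HFD-O304 in its title is among the alternatives above.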
